A study of Mus musculus with 7 samples.

Results

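The genes described here encode the carboxylesterases (Ces), the UDP-glucuronosyltransferases (Ugt), the cytosolic sulfotransferases (Sult) and the alpha, mu, pi and theta classes of glutathione S-transferases (Gsta, Gstm, Gstp and Gstt). They were all protein-coding genes of the deposited table whose symbol is Ces, Ugt or Sult followed by a digit, or Gsta, Gstm, Gstp or Gstt followed by a digit. The rule used names only and gave 80 of the 55536 genes listed, of which 19 are Ces, 18 Gst, 21 Sult and 22 Ugt genes. RNA of EPCAM+ medullary thymic epithelial cells (mTECs), sorted from the mouse thymus and lysed at once, was sequenced by SMART-seq, a full-length method for small numbers of cells. The Cre-positive group, labelled Cre(+) Ikzf1fl/fl Pou2f3-/-, had 3 libraries, numbered 45, 76 and 80 in the labels. The Cre-negative group, labelled Cre(-) Ikzf1fl/fl Pou2f3-/-, had 4, numbered 46, 48, 75 and 77. Both groups thus carry floxed alleles of Ikzf1, which encodes the transcription factor Ikaros, and both are labelled null for Pou2f3, which tuft cells require. The comparison asks how Ikaros affects mTEC expression where tuft cells are missing, per the series' design. The sources used here do not give the Cre driver, the floxed exon, or the age and sex of the mice. Nor do they say that each numbered library is a different mouse. The p-values therefore reflect how far these libraries scatter, and some of that scatter may be technical.

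Carboxylesterases cleave esters of drugs and lipids, and liver, intestine and plasma are their best known sites in the mouse. Glutathione S-transferases, sulfotransferases and UDP-glucuronosyltransferases then attach glutathione, sulfate or glucuronic acid to a substrate, which makes it more soluble and ready for export. Liver, gut and kidney hold most of this machinery, and in the thymus mTECs transcribe many such peripheral tissue genes, partly under the regulator Aire and partly in mimetic cells that resemble peripheral cell types.

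The libraries held between 11383465 and 11623062 recovered reads in the Cre-positive group and between 9815958 and 12599078 in the Cre-negative group. At least 10 reads were found for 17169 to 18014 genes in Cre-positive libraries and for 19417 to 20467 genes in Cre-negative libraries. Gene-level counts of Ikzf1 were 1310.3, 1828.6 and 1677.5 in Cre-positive 45, 76 and 80, against 1118.7, 1149.5, 1146.8 and 1219.0 in Cre-negative 46, 48, 75 and 77 (log2 fold change 0.46, SE 0.17, adjusted p = 0.0916). These sums run over the whole gene and the floxed exon is not known, so they do not check the labels. Pou2f3 had 17.8, 0 and 4.2 in Cre-positive 45, 76 and 80, against 17.6, 19.7, 1.8 and 27.9 in Cre-negative 46, 48, 75 and 77 (adjusted p = 0.413), which is no check either, since a null allele can be transcribed. Reads of 4 Y-linked genes were abundant only in Cre-negative 48, where their mean log2 level was 9.49, against 0 in each Cre-positive library and 0.212 to 0.25 in the other Cre-negative libraries. All 9 defining mTEC markers were read in every group. Of these, Krt5 was higher in Cre-positive libraries, and Aire and Cd80 were lower there, with Aire at 2967 ± 308 normalized counts in Cre-positive (SD, n = 3) and 4417 ± 767 in Cre-negative libraries (SD, n = 4; log2 fold change -0.56, adjusted p = 0.0395).

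Lower calls outnumbered higher calls among carboxylesterase and conjugation genes in Cre-positive mTECs. A normalized count is a read count divided by the size factor of its library, and a gene was called where the adjusted p of a limma fit was under 0.05, with the fit and the adjustment over all 22878 genes that averaged 5 or more normalized counts. Of the 80 genes 58 reached that mean, and 21 of them were called lower and 1, Gstp3, was called higher in Cre-positive libraries. Among all genes tested 9.11% were called lower and 4.66% higher, or 13.8% in either direction, and among protein-coding genes 10.3% were called lower and 5.28% higher. Log2 fold changes were below 0 for 50 of the 58 genes, with a median of -1.37, beside a median of -0.10 over all genes tested. The median was also -1.37 when the 3 tested genes with no Cre-positive read were set to a floor of 3 reads over that group. The groups did not overlap for 24 genes that lay lower and 2 that lay higher in Cre-positive libraries, whereas 14.5% of all tested genes separated with lower and 10.8% with higher Cre-positive values, 25.3% in all. Of protein-coding genes 27.5% separated in either direction. The filter let in 15 of the 58 genes through the Cre-negative libraries alone, since their Cre-positive mean was under 5, and 8 of the 21 lower calls are among them. These 8 are Ces1c, Ces1g, Gstm7, Sult1c1, Sult2a6, Sult6b2, Ugt2b36 and Ugt2b5. Nothing is read from their calls or from the separation of their groups. They and Ces4a, let in the same way, are also among the 24 genes whose groups separated with lower Cre-positive values. Both group means reached 5 for 43 genes, of which 13 (30.2%) were called lower, 35 lay below 0 and the median log2 fold change was -0.63. Of the 19368 genes of the whole table whose group means both reached 5, 7.16% were called lower and 5.34% higher, with a median of -0.000264. With a term for Y-linked expression the calls of Gstp3, Gstt1, Gstm6, Sult1a1 and Ugt2b5 were lost (adjusted p between 0.0520 and 0.0724) and 17 lower calls were left. Y-linked reads were abundant only in Cre-negative 48, so the term mainly sets that library apart, and sex cannot be told from its other traits. Gstt1, Gstm6, Sult1a1 and Ugt2b5 were also lost when Cre-negative 48 was left out. In bulk samples, fewer cells of a type and less RNA per cell cannot be told apart.

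**Figure D1:**
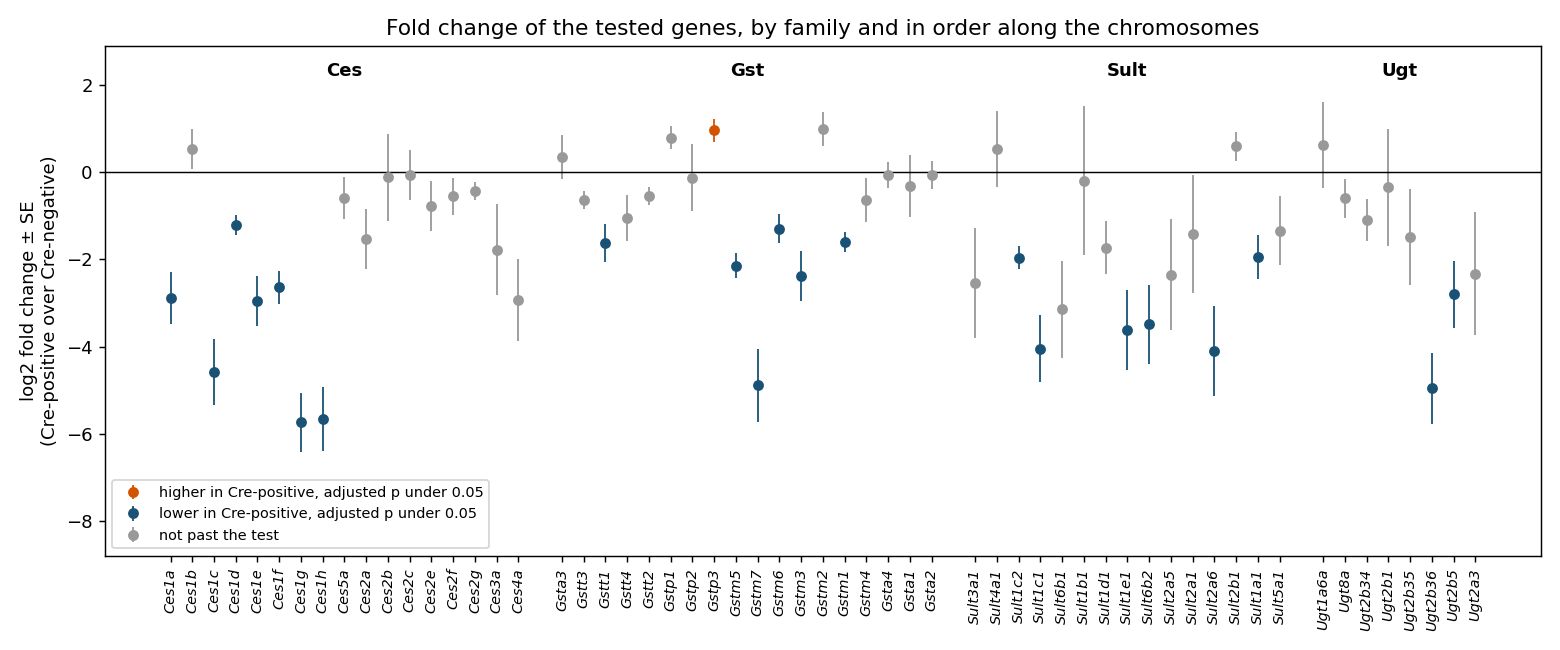
Log2 fold change of Cre-positive over Cre-negative mTECs for the 58 tested genes, grouped by family along the x axis and ordered along the chromosomes. Points are limma estimates with their SE, orange where called higher, dark blue where called lower and grey where not called. Ces1 and Gstm hold 12 of the 21 lower calls. Of these, Ces1g, Ces1c and Gstm7 passed the filter through the Cre-negative libraries alone.

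The 8 Ces1 genes lie side by side on mouse chromosome 8 from 93020214 to 93379725 (GRCm38) with no other protein-coding gene between them. Of these 8, 7 were called lower. Ces1g and Ces1c had Cre-positive means of 0.67 and 1.37. They passed the filter through the Cre-negative libraries alone, and nothing is read from their calls. The 4 Ces1 genes with the lowest counts in Cre-positive libraries were Ces1g, Ces1h, Ces1c and Ces1e. Their promoter windows, 250 bases before to 50 after the RefSeq gene start on GRCm38.p6, are shown because these neighbours were all called lower. All 4 lie on the minus strand, at chr8:93337160-93337459 for Ces1g, chr8:93379728-93380027 for Ces1h, chr8:93131234-93131533 for Ces1c and chr8:93229570-93229869 for Ces1e. Capitals mark a match to TATAAA read on either strand.
Ces1g: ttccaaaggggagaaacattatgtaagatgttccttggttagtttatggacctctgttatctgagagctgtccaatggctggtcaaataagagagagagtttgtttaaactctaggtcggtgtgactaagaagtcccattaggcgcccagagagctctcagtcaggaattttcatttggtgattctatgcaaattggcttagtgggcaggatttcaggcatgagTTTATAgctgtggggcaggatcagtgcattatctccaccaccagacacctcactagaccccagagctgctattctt
Ces1h: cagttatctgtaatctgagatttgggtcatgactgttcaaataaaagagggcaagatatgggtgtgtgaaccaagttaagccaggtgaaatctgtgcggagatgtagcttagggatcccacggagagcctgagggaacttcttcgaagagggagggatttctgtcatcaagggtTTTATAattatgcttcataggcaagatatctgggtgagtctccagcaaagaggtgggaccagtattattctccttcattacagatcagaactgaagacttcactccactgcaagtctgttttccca
Ces1c: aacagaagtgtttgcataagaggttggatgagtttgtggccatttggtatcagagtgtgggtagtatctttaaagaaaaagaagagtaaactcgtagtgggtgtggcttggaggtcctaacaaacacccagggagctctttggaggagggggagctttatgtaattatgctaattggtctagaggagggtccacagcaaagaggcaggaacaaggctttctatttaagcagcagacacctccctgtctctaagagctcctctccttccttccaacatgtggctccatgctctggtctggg
Ces1e: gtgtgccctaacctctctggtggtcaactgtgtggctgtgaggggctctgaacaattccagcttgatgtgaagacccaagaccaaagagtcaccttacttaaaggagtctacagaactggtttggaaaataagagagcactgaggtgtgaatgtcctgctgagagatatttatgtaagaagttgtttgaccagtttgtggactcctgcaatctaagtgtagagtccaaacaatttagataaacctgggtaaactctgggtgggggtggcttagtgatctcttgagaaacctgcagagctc

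The Ces1g match began 26 bases and the Ces1h match 76 bases before the RefSeq gene start, both on the strand opposite to the gene. The Ces1c and Ces1e windows held no match. None of the 4 held TGACNNNGC (the core of the antioxidant response element), GCGTG (the core of the dioxin response element) or GTTAAT (the half-site of Hnf1 factors), each searched on both strands. TATAAA occurred in 13.6% of the 32851 windows of this length, TGACNNNGC in 12.4%, GCGTG in 32.4% and GTTAAT in 7.10%. Counted over the 27025 genes with a window, the shares were 15.7%, 13.99%, 35.2% and 8.24%. Windows were found for 68 of the 80 genes. Among the 19 of these called lower, 8 held TATAAA, 2 TGACNNNGC, 2 GCGTG and 2 GTTAAT, and among 30 tested but not called the counts were 3, 1, 7 and 6. A match here describes letters only.

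Ces1g (ENSMUSG00000057074, 93302369 to 93337308), a liver carboxylesterase of lipid metabolism, had 0, 1.0 and 1.0 normalized counts in Cre-positive 45, 76 and 80, against 83.8, 79.8, 69.4 and 107.5 in Cre-negative 46, 48, 75 and 77. It passed the filter through the Cre-negative libraries alone, so the distance between its groups is no support. The gene was nearly silent in each Cre-positive library. These are 2 reads in the Cre-positive group and 362 in the Cre-negative group, a Cre-negative over Cre-positive ratio of 123 with a 95% counting interval of 33.9 to 1022. Its log2 fold change was -5.74 (SE 0.67, adjusted p = 2.16e-04), the lowest of the 58. Such fits depend on the added count where reads are near 0, and edgeR gave -6.72 and DESeq2 -6.96.

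Ces1h (ENSMUSG00000074156, 93351843 to 93379725), the next gene along, had 0, 6.0 and 12.5 normalized counts in Cre-positive 45, 76 and 80, against 245.5, 209.8, 255.8 and 214.0 in Cre-negative 46, 48, 75 and 77. It was low in every Cre-positive library, lowest in 45, and even in Cre-negative ones (log2 fold change -5.67, SE 0.73, adjusted p = 4.08e-04). The value was -4.57 without Cre-positive 45 and -6.45 without Cre-positive 80. Ces1c, which encodes the carboxylesterase of mouse plasma, had 3.1, 0 and 1.0 normalized counts in Cre-positive 45, 76 and 80, against 59.5, 46.3, 50.4 and 35.2 in Cre-negative 46, 48, 75 and 77 (log2 fold change -4.57, SE 0.76, adjusted p = 0.00193). Like Ces1g, Ces1c passed the filter through the Cre-negative libraries alone.

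Ces1e had 7.3, 12 and 4.2 normalized counts in Cre-positive 45, 76 and 80, against 57.8, 55.2, 53.2 and 93.0 in Cre-negative 46, 48, 75 and 77, and fell by 2.96 on the log2 scale (SE 0.58, adjusted p = 0.00526). Ces1a had 9.4, 23.0 and 5.2 in Cre-positive 45, 76 and 80, against 65.4, 164.5, 71.2 and 67.2 in Cre-negative 46, 48, 75 and 77 (log2 fold change -2.89, SE 0.60, adjusted p = 0.00732). For Ces1a, Cre-negative 48 stood above the 3 other Cre-negative libraries, which were close together. Ces1f had 85.7, 38.1 and 67.5 in Cre-positive 45, 76 and 80, against 361.2, 517.1, 215.3 and 532.5 in Cre-negative 46, 48, 75 and 77 (log2 fold change -2.64, SE 0.38, adjusted p = 8.07e-04). None of these 3 genes had overlapping groups.

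Ces1d, a triacylglycerol hydrolase of liver and fat, was the most abundant carboxylesterase and stayed well expressed. It had 897.6, 717.0 and 969.5 normalized counts in Cre-positive 45, 76 and 80, against 2543.4, 2571.8, 1349.5 and 1767.9 in Cre-negative 46, 48, 75 and 77. The groups did not overlap, and it fell by 1.22 on the log2 scale (SE 0.23, adjusted p = 0.00448), the smallest of the 7 Ces1 falls. Ces1b, between Ces1a and Ces1c, had 100.3, 65.1 and 97.6 in Cre-positive 45, 76 and 80, against 26.8, 76.8, 73.9 and 78.6 in Cre-negative 46, 48, 75 and 77. Its groups overlapped, and the difference was not called (log2 fold change 0.54, SE 0.46, adjusted p = 0.485).

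The ratio of Ces1b to its neighbour Ces1a within a library, a pair chosen after the values were seen, was 9.74, 2.75 and 15.9 in Cre-positive 45, 76 and 80, against 0.419, 0.470, 1.04 and 1.17 in Cre-negative 46, 48, 75 and 77. The ratios did not overlap, and an exact two-sided permutation test gave p = 0.0571, the smallest that 3 against 4 libraries can give. Because the pair was picked from these same values, neither the separation nor the p-value is support. Of the 50-base stretches of Ces1a transcripts, 13.7% also occur in transcripts of other genes, and the share was 11.6% for Ces1b and 13% for Ces1c, so a part of their reads is uncertain in its assignment. For Ces1d to Ces1h the share was under 5%.

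None of the other carboxylesterases passed the test. The 7 Ces2 genes, on chromosome 8 from 104734003 to 105021178, include the main intestinal carboxylesterases, and 6 were tested. Ces2g, the highest of them, had 433.6, 406.6 and 445.3 normalized counts in Cre-positive 45, 76 and 80, against 523.8, 725.9, 531.5 and 542.8 in Cre-negative 46, 48, 75 and 77. All Cre-positive values were the lower ones, by -0.43 on the log2 scale (SE 0.20, adjusted p = 0.182). The 6 tested Ces2 genes had log2 fold changes between -1.53 for Ces2a and -0.07 for Ces2c. Ces4a averaged 0.67 ± 1.15 normalized counts in Cre-positive (SD, n = 3) and 10.9 ± 5.54 in Cre-negative libraries (SD, n = 4; adjusted p = 0.0550), and Ces5a averaged 139 ± 99.6 in Cre-positive and 174 ± 44.0 in Cre-negative libraries (adjusted p = 0.459). Ces1 genes made up 53.1 to 59.97% of all Ces counts in Cre-positive libraries and 69.7 to 74.9% in Cre-negative ones.

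**Figure D2:**
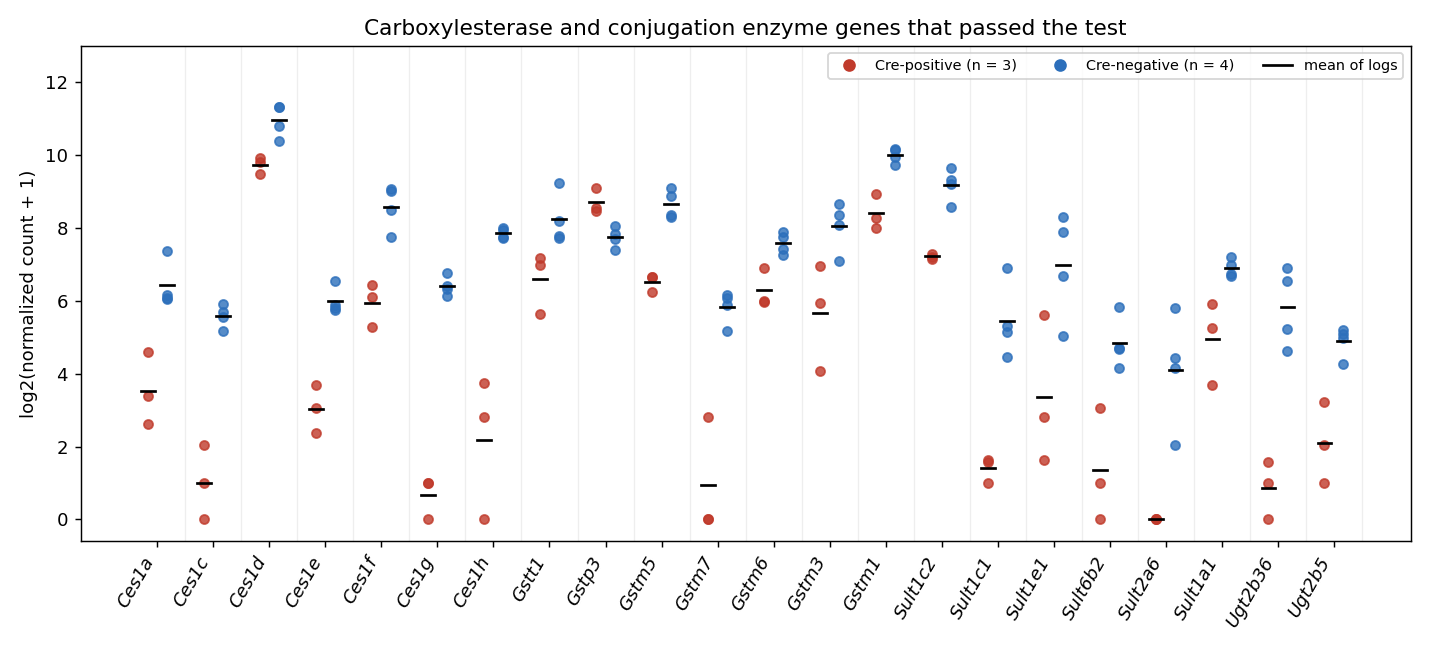
Values of the 22 called genes in each library, as log2(normalized count + 1) on the y axis, with genes in order of family along the x axis. Red points are Cre-positive and blue points Cre-negative libraries, and black lines are means of logs; Gstp3 is the gene with higher Cre-positive values, and Sult1e1 the gene whose groups overlap.

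Among the glutathione S-transferases 6 of 18 genes were called lower and 1 higher. Of the 7 mu class genes, Gstm1 to Gstm7, which conjugate electrophiles and form 1 cluster on chromosome 3 from 107895821 to 108044894, 5 were called lower. Of the 3 pi class genes, Gstp3 was called higher, and of the 4 theta class genes Gstt1 was called lower. None of the 4 alpha class genes was called.

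Gstm1 (ENSMUSG00000058135, 108012255 to 108017973), the most abundant mu gene in Cre-negative libraries, had 253.9, 311.4 and 483.7 normalized counts in Cre-positive 45, 76 and 80, against 983.8, 853.0, 1147.7 and 1121.8 in Cre-negative 46, 48, 75 and 77. The groups did not overlap (log2 fold change -1.59, SE 0.23, adjusted p = 9.58e-04). Gstm5 had 75.2, 99.1 and 99.7 in Cre-positive 45, 76 and 80, against 465.9, 330.0, 550.4 and 315.3 in Cre-negative 46, 48, 75 and 77, and fell by 2.15 on the log2 scale (SE 0.28, adjusted p = 4.43e-04). Gstm7 had 0, 6.0 and 0 in Cre-positive 45, 76 and 80, against 35.2, 70.9, 66.7 and 57.9 in Cre-negative 46, 48, 75 and 77 (log2 fold change -4.89, SE 0.84, adjusted p = 0.00249). All its Cre-positive reads came from library 76, and its log2 fold change was -5.83 without that library. Gstm7 passed the filter through the Cre-negative libraries alone, so nothing is read from its call.

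Gstm3 had 60.6, 16.0 and 123.5 normalized counts in Cre-positive 45, 76 and 80, against 328.5, 135.9, 268.5 and 403.2 in Cre-negative 46, 48, 75 and 77 (log2 fold change -2.38, SE 0.58, adjusted p = 0.0162). The highest Cre-positive library came close to the lowest Cre-negative one. The value was -1.60 without Cre-positive 76 and -3.03 without Cre-positive 80, and without Cre-negative 46 the adjusted p was 0.0508. Gstm6 had 62.7, 61.1 and 119.4 in Cre-positive 45, 76 and 80, against 152.5, 234.4, 216.2 and 169.6 in Cre-negative 46, 48, 75 and 77 (log2 fold change -1.29, SE 0.34, adjusted p = 0.0243). Its groups did not overlap, but the call was lost without Cre-positive 45 or 76 or without Cre-negative 48 or 75, with adjusted p between 0.0566 and 0.0761.

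Gstm2, which lies between Gstm3 and Gstm1, was not lower. It had 244.5, 166.2 and 385.1 normalized counts in Cre-positive 45, 76 and 80, against 72.1, 109.3, 161.3 and 195.4 in Cre-negative 46, 48, 75 and 77, with overlapping groups (log2 fold change 0.99, SE 0.39, adjusted p = 0.111). The ratio of Gstm2 to Gstm1 within a library, also chosen after the values were seen, was 0.963, 0.535 and 0.797 in Cre-positive 45, 76 and 80, against 0.0742, 0.129, 0.141 and 0.175 in Cre-negative 46, 48, 75 and 77. These ratios did not overlap (exact two-sided permutation p = 0.0571, the smallest possible). Since this pair too was picked from the values, nothing is concluded from that. Transcripts of Gstm1 share 18.9% and those of Gstm3 28.8% of their 50-base stretches with other genes, and those of Gstm2 5.65%, so the split of reads among the mu genes is uncertain to that extent.

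The pi class genes lie together on chromosome 19 from 4035407 to 4059446. Gstp3 (ENSMUSG00000058216, 4057477 to 4059446) had 375.1, 350.5 and 548.1 normalized counts in Cre-positive 45, 76 and 80, against 166.8, 225.6, 265.8 and 205.7 in Cre-negative 46, 48, 75 and 77. Every Cre-positive library was above every Cre-negative one, and the gene rose by 0.96 on the log2 scale (SE 0.26, adjusted p = 0.0263). The call was lost without Cre-positive 45 or 80 or without Cre-negative 46 or 77, with adjusted p between 0.05009 and 0.104. It was also lost when libraries were scaled to their totals (log2 fold change 0.76, adjusted p = 0.0684) and with a term for Y-linked expression (adjusted p = 0.0520).

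Gstp1, the widely expressed pi class enzyme, had 1889.2, 1880.7 and 2422.8 normalized counts in Cre-positive 45, 76 and 80, against 1139.7, 672.8, 1658.5 and 1536.4 in Cre-negative 46, 48, 75 and 77. Every Cre-positive library was again above every Cre-negative one, yet the gene was not called (log2 fold change 0.79, SE 0.27, adjusted p = 0.0698). Without Cre-negative 75 it was (0.96, adjusted p = 0.0415). Of the 50-base stretches of Gstp1 transcripts 33.7% occur in other genes, and of those of Gstp2 54.3%, but none of those of Gstp3.

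Gstt1, of the theta class on chromosome 10, had 143.2, 49.1 and 126.6 normalized counts in Cre-positive 45, 76 and 80, against 218.7, 293.5, 600.9 and 210.9 in Cre-negative 46, 48, 75 and 77. No library crossed to the other group (log2 fold change -1.63, SE 0.43, adjusted p = 0.0259). Without Cre-positive 76, Cre-negative 48 or Cre-negative 75 the call was lost, with adjusted p between 0.0577 and 0.0930. Its neighbours Gstt2, Gstt3 and Gstt4 had log2 fold changes of -0.54, -0.64 and -1.05 and were not called. Gsta2, an alpha class enzyme of liver and gut, had 746.1, 632.9 and 1535.3 in Cre-positive 45, 76 and 80, against 1173.2, 1372.1, 716.2 and 685.5 in Cre-negative 46, 48, 75 and 77. The groups overlapped throughout (log2 fold change -0.07, SE 0.32, adjusted p = 0.916), and 49.8% of its 50-base stretches are shared with other genes.

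Summed over each class, the Gst counts differed in make-up between the groups. The 18 genes together had 6102 ± 1537 normalized counts in Cre-positive (SD, n = 3) and 7062 ± 629 in Cre-negative libraries (SD, n = 4), a difference smaller than the Cre-positive spread. That spread rests on Cre-positive 80, at 7877. Cre-positive 45 and 76, at 5237 and 5193, lay under every Cre-negative library (6406 to 7907). The pi class took 38.7 to 43.4% of this sum in Cre-positive and 14.2 to 25.2% in Cre-negative libraries, and the mu class 13.3 to 16.6% in Cre-positive and 28.6 to 34.1% in Cre-negative libraries. The theta class took 13.98 to 19.2% in Cre-positive and 23.1 to 25.6% in Cre-negative libraries. The alpha class overlapped, at 22.6 to 30.8% in Cre-positive and 15.2 to 34.1% in Cre-negative libraries. These sums and shares are descriptions, with no test.

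**Figure D3:**
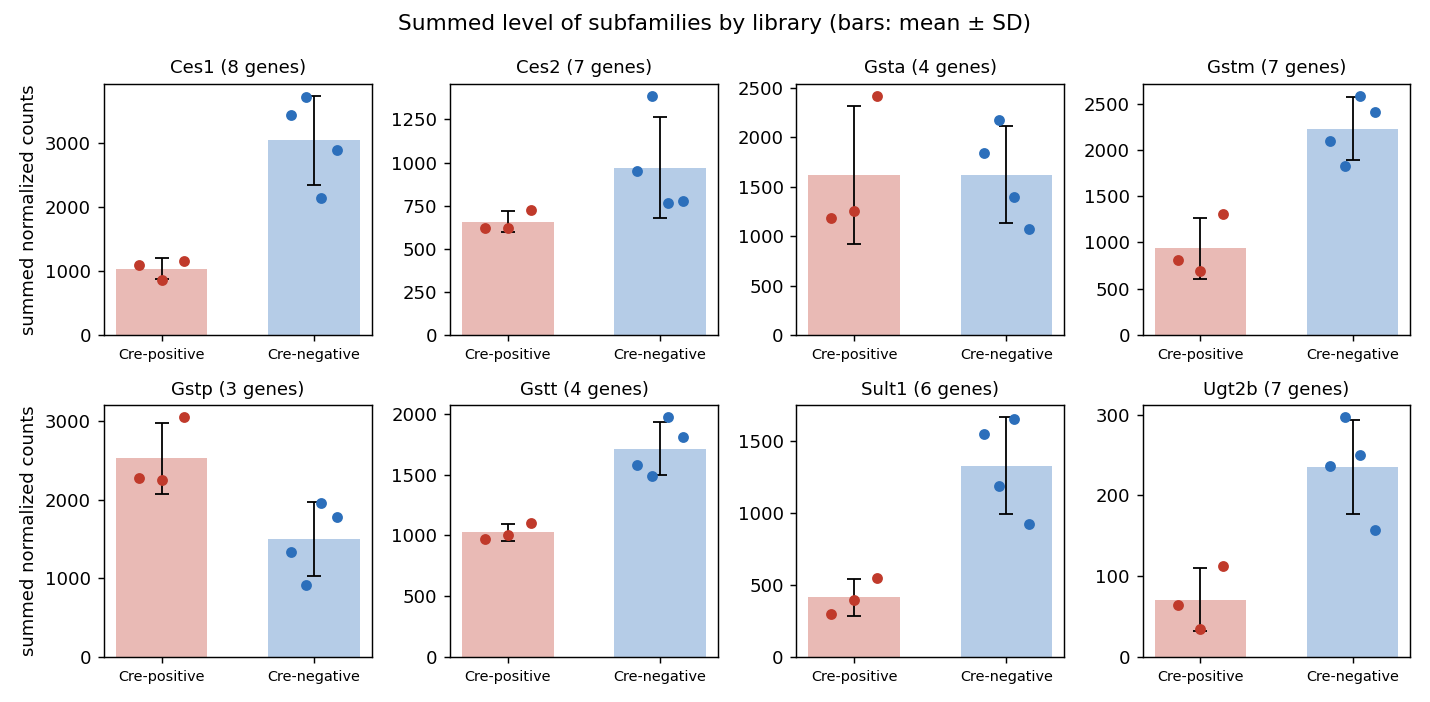
Summed normalized counts (y axes, starting at 0) of 8 subfamilies in each library, with Cre-positive in red and Cre-negative in blue. Bars are means and whiskers SD. The Ces1, Ces2, Gstm, Gstt, Sult1 and Ugt2b sums lie lower in every Cre-positive library, the Gstp sum lies higher, and the Gsta sums overlap.

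Among the sulfotransferases, which transfer sulfate to phenols, steroids and amines, 6 of 15 tested genes were called lower and none higher. Of the 6, Sult1c1, Sult6b2 and Sult2a6 passed the filter through the Cre-negative libraries alone, and nothing is read from their calls. Sult1c2 (ENSMUSG00000023122, chromosome 17, 53829637 to 53846339), the one with the most reads in Cre-negative libraries, had 155.7, 141.2 and 147.4 normalized counts in Cre-positive 45, 76 and 80, against 637.7, 378.2, 799.1 and 590.3 in Cre-negative 46, 48, 75 and 77. The Cre-positive libraries were nearly equal and all under the Cre-negative ones (log2 fold change -1.97, SE 0.26, adjusted p = 5.15e-04). Its neighbour Sult1c1 had 2.1, 2.0 and 1.0 in Cre-positive 45, 76 and 80, against 21, 34.5, 118.9 and 38.3 in Cre-negative 46, 48, 75 and 77 (log2 fold change -4.05, SE 0.78, adjusted p = 0.00469). It was near 0 in every Cre-positive library and varied widely in Cre-negative ones, and edgeR gave -4.86 and DESeq2 -4.96.

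Sult1a1, the phenol sulfotransferase, had 59.6, 12 and 37.4 normalized counts in Cre-positive 45, 76 and 80, against 105.6, 147.7, 125.2 and 102.4 in Cre-negative 46, 48, 75 and 77. Each Cre-positive value lay under each Cre-negative one (log2 fold change -1.94, SE 0.51, adjusted p = 0.0237). The value was -1.31 without Cre-positive 76, and the call was lost without that library or without Cre-negative 46, 48 or 75, with adjusted p between 0.0523 and 0.0675. Sult1a1 overlaps Sgf29, and whether reads were counted by strand is not known, so reads of the 2 genes may be mixed. Sult1e1, the oestrogen sulfotransferase, had 48.1, 6.0 and 2.1 in Cre-positive 45, 76 and 80, against 315.1, 31.5, 234.2 and 102.4 in Cre-negative 46, 48, 75 and 77 (log2 fold change -3.62, SE 0.93, adjusted p = 0.0221). Cre-positive 45 lay above Cre-negative 48, so the groups overlapped. The value was -4.75 without Cre-positive 45, -2.76 without Cre-positive 80 and -4.27 without Cre-negative 48, and the call was lost without Cre-positive 76 or 80 or without Cre-negative 46 or 75 (adjusted p between 0.0608 and 0.0747).

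Sult6b2 had 7.3, 0 and 1.0 normalized counts in Cre-positive 45, 76 and 80, against 56.1, 16.7, 25.2 and 24.8 in Cre-negative 46, 48, 75 and 77 (log2 fold change -3.49, SE 0.90, adjusted p = 0.0222). Its groups did not overlap, but the gene passed the filter through the Cre-negative libraries alone. The value was -4.35 without Cre-positive 45 and -2.82 without Cre-positive 76, edgeR did not call it (adjusted p = 0.0604), and it was lost without Cre-positive 76 or 80 or without Cre-negative 46 or 77, with adjusted p between 0.0503 and 0.0769. Sult2a6, one of the hydroxysteroid sulfotransferases clustered on chromosome 7 from 13623967 to 14494230, was at 0 in Cre-positive 45, 76 and 80, against 55.3, 16.7, 20.7 and 3.1 normalized counts in Cre-negative 46, 48, 75 and 77. Against a floor of 3 reads over the Cre-positive group, the 109 Cre-negative reads gave a ratio of 23.3 (limma adjusted p = 0.0196). The lower 95% counting limit of the Cre-negative over Cre-positive ratio was 19.8, so 23.3 is not a lower bound. Cre-negative 46 held 66 of the 109 reads. Without that library the ratio to the floor was 13.1 and the call was lost (adjusted p = 0.0719). Sult2a6 too passed the filter through the Cre-negative libraries alone. The fitted value was -4.11, or -3.54 without Cre-negative 46 and -4.80 without Cre-negative 77.

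Sult1d1, known for sulfating catecholamines in mice, had 30.3, 87.1 and 184.8 normalized counts in Cre-positive 45, 76 and 80, against 421.5, 455.1, 280.2 and 91.0 in Cre-negative 46, 48, 75 and 77. Cre-positive 80 overlapped Cre-negative 77, and the gene was not called (log2 fold change -1.73, SE 0.61, adjusted p = 0.0786). It passed without Cre-positive 80 (-2.34, adjusted p = 0.0258), without Cre-negative 77 (-2.24, adjusted p = 0.0219) and with DESeq2 (-1.63, adjusted p = 0.0327). Sult2b1, the cholesterol sulfotransferase of skin, averaged 257.5 ± 38.4 in Cre-positive (SD, n = 3) and 181.9 ± 78.0 in Cre-negative libraries (SD, n = 4), and was not called (log2 fold change 0.59, adjusted p = 0.282). It overlaps the antisense gene Gm31597. Sult1b1 ranged from 0 to 172.3 in Cre-positive and from 1.0 to 139.9 in Cre-negative libraries. All Sult genes together had 744 ± 110 in Cre-positive and 1748 ± 395 in Cre-negative libraries (SD, n = 3 and 4).

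The UDP-glucuronosyltransferases, which glucuronidate bilirubin, steroids, bile acids and drugs, had the lowest summed counts of the 4 families, at 147.4 ± 27.5 in Cre-positive (SD, n = 3) and 355 ± 65.0 in Cre-negative libraries (SD, n = 4). Only 8 of 22 genes were tested. Of these, 2 were called lower, both on chromosome 5 in the Ugt2 cluster from 86889767 to 87490871. Both had Cre-positive means under 5 and passed the filter through the Cre-negative libraries alone, so nothing is read from their calls. Ugt2b36 (ENSMUSG00000070704, 87065927 to 87092555) had 0, 2.0 and 1.0 normalized counts in Cre-positive 45, 76 and 80, against 92.2, 23.6, 118.9 and 36.2 in Cre-negative 46, 48, 75 and 77. It was near 0 in all Cre-positive libraries, with 3 reads in that group and 301 in the Cre-negative group, a Cre-negative over Cre-positive ratio of 68.3 (95% counting interval 23.2 to 333). Its log2 fold change was -4.96 (SE 0.82, adjusted p = 0.00189), and edgeR gave -5.88 and DESeq2 -6.05.

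Ugt2b5 had 8.4, 1.0 and 3.1 normalized counts in Cre-positive 45, 76 and 80, against 18.4, 30.5, 36.0 and 33.1 in Cre-negative 46, 48, 75 and 77 (log2 fold change -2.80, SE 0.77, adjusted p = 0.0296). Its groups stayed apart, but the gene passed the filter through the Cre-negative libraries alone. The call was lost when any library other than Cre-positive 45 was left out, with adjusted p between 0.0516 and 0.0801, and was made neither by edgeR (adjusted p = 0.0532) nor with no filter on low values (adjusted p = 0.0535). Its transcripts share 41.7% of their 50-base stretches with other genes. Ugt2b34 had 55.4, 24.0 and 77.9 in Cre-positive 45, 76 and 80, against 84.6, 192.1, 84.7 and 77.5 in Cre-negative 46, 48, 75 and 77, with overlapping groups (log2 fold change -1.09, adjusted p = 0.160). Ugt8a, the ceramide galactosyltransferase of myelin lipid synthesis, had 40.8, 100.1 and 38.4 in Cre-positive 45, 76 and 80, against 124.9, 65.0, 86.5 and 65.1 in Cre-negative 46, 48, 75 and 77 (log2 fold change -0.60, adjusted p = 0.425). It too overlapped.

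The 22 genes left untested were 2 Ces genes with 19 and 20 reads over the 7 libraries, 6 Sult genes with 3 to 34 reads and 14 Ugt genes with 0 to 35 reads. Ugt1a10, Ugt1a6b, Ugt2a1 and Ugt2a2 had no read in any library. The 9 Ugt1a genes share their last exons at one locus on chromosome 1 from 88055388 to 88220002, and between 52.1% and 80.2% of their 50-base stretches occur in other genes. Counting can discard or misplace such reads, so their low counts are uncertain. Only Ugt1a6a was tested, at 8.20 ± 1.74 normalized counts in Cre-positive (SD, n = 3) and 7.63 ± 7.30 in Cre-negative libraries (SD, n = 4; adjusted p = 0.724).

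Levels can be set beside each other between genes only per length of transcript. In normalized counts per kilobase of merged exon, the highest levels in Cre-positive libraries were those of Gstp1 at 1333, Gsta2 at 825, Gstp3 at 468 and Ces1d at 364. In Cre-negative libraries they were Ces1d at 869, Gsta2 at 838, Gstp1 at 809 and Gstm1 at 697. Gstp1 thus led the Cre-positive order and Ces1d the Cre-negative order. In Cre-negative libraries Ces1d, Gsta2 and Gstp1 did not differ beyond their spread, with SDs of 602, 340 and 445 normalized counts before division by length.

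Lower calls were also counted by level of expression. Between 5 and 20 mean normalized counts 3 of 15 enzyme genes were called lower (20%), against 5.36% of all genes of that level, and between 20 and 100 the count was 8 of 18 (44.4%), against 13.9%. Between 100 and 500 it was 8 of 19 (42.1%), against 9.04%, and at 500 or more 2 of 6 (33.3%), against 7.56%. In the lowest range 10 of the 15 genes had a Cre-positive mean under 5 and so passed the filter through the Cre-negative libraries alone, all 3 lower calls among them, and in the next range 5 of the 18, with 5 of the 8 lower calls. Nothing is read from those calls. Above 100 no gene passed that way. These shares carry no test.

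**Figure D4:**
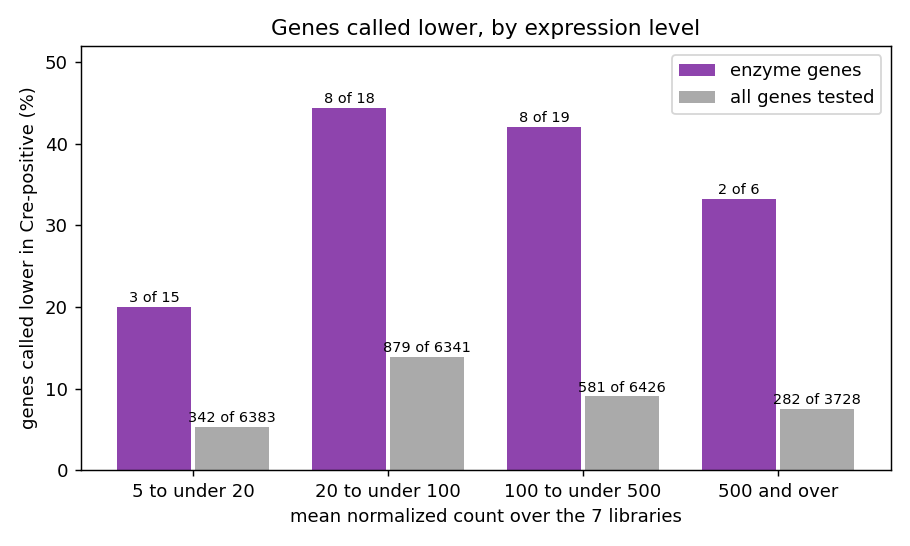
Percent of genes called lower in Cre-positive mTECs (y axis, from 0) by mean normalized count over the 7 libraries (x axis). Purple bars are the 58 tested enzyme genes and grey bars all genes tested, with counts above the bars; in the 2 lower ranges 15 enzyme genes passed the filter through the Cre-negative libraries alone.

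Other genes of the same pathways were 97 in 8 lists. Of 93 tested, 16 were called lower (17.2%, beside 9.11% of all genes) and 8 higher (8.60%, beside 4.66%). The median log2 fold change was -0.30. Among the 16, Ggt1, Glyat, Abcb11 and Nr1h4 had Cre-positive means of 3.07, 2.03, 3.37 and 2.7. They passed the filter through the Cre-negative libraries alone, and nothing is read from their calls or from their part in the 17.2%. Among 14 genes of glutathione supply and other glutathione transferases, Gclc, the catalytic subunit of the rate-limiting enzyme of glutathione synthesis, rose by 0.83 on the log2 scale, with 1721 ± 48.5 normalized counts in Cre-positive (SD, n = 3) and 982 ± 201 in Cre-negative libraries (SD, n = 4; adjusted p = 0.0133). Mgst1, a microsomal transferase, also rose (0.76, adjusted p = 0.00837), and Ggt1, which degrades extracellular glutathione, fell (-3.18, adjusted p = 0.0108). The other 11 were not called.

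Of 7 genes that supply the cosubstrates of sulfation and glucuronidation, 2 were called, both lower. Papss2, which makes the sulfate donor PAPS, had 323.9, 272.4 and 182.7 normalized counts in Cre-positive 45, 76 and 80, against 729.9, 794.9, 865.7 and 602.8 in Cre-negative 46, 48, 75 and 77 (log2 fold change -1.55, SE 0.24, adjusted p = 0.00127). Ugdh, which makes UDP-glucuronic acid, had 438.9, 413.6 and 329.1 in Cre-positive 45, 76 and 80, against 755.9, 850.1, 748.6 and 558.3 in Cre-negative 46, 48, 75 and 77 (log2 fold change -0.88, SE 0.21, adjusted p = 0.0159). Neither gene had overlapping groups.

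Reductases and oxidases moved both ways. The flavin monooxygenases Fmo2 and Fmo5 fell (log2 fold changes -2.84 and -1.62), and Fmo2 had 29.2 ± 6.25 normalized counts in Cre-positive (SD, n = 3) and 231 ± 95.9 in Cre-negative libraries (SD, n = 4; adjusted p = 0.00125). Aldh1a1, a retinal dehydrogenase, and Nqo1, a quinone reductase, also fell (-2.80 and -0.92). Aldh3a1, Cbr1 and Nqo2 rose (1.64, 0.95 and 0.85). The conjugating enzymes Glyat, Gnmt and Baat fell (-3.00, -1.68 and -2.77) among 13 tested, and the esterase Aadac rose (1.46) among 11. Of the 5 tested deconjugating enzymes, Gusb, the lysosomal beta-glucuronidase, rose (0.61) and the sulfatase Sulf2 fell (-2.61). Of 8 export pumps Abcb1a and Abcb11, of which Abcb11 exports bile salts, fell (-2.45 and -3.28). Glyat and Abcb11 passed the filter through the Cre-negative libraries alone.

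Of the 19 tested regulators of drug-metabolism genes, Nr1h4, the bile acid receptor FXR, had 2.1, 6.0 and 0 normalized counts in Cre-positive 45, 76 and 80, against 56.1, 17.7, 49.5 and 111.7 in Cre-negative 46, 48, 75 and 77 (log2 fold change -4.15, SE 0.87, adjusted p = 0.00769). Its Cre-positive mean was 2.7, so it passed the filter through the Cre-negative libraries alone. Nothing is read from its call or from the separation of its groups. Arnt, the partner of the aryl hydrocarbon receptor, fell (-0.88, adjusted p = 0.0497) and Tiparp, a target and repressor of that receptor, rose (0.79, adjusted p = 0.0453). Nfe2l2, Ahr, Nr1i2, Hnf4a and Hnf4g were among the 16 not called.

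Markers of cells that express these enzymes in peripheral tissues, or that a sort may carry along, were read beside them. Of 15 enterocyte and hepatocyte markers 2 were called, Saa1 and Saa3, both lower, and the summed list ran from 24727 to 45493 normalized counts in Cre-positive and from 29981 to 58895 in Cre-negative libraries. Of 8 macrophage and dendritic cell markers Lyz2 was called higher and Adgre1 lower, and the sums, mostly Lyz2, ran from 7492 to 11371 in Cre-positive and from 5278 to 6995 in Cre-negative libraries. Without Lyz2 the other 7 summed to 224.2 to 644.7 in Cre-positive and 786.1 to 924.3 in Cre-negative libraries, apart in the other direction. That sum includes Adgre1, at 56.4, 29.0 and 28.0 in Cre-positive 45, 76 and 80. Its Cre-negative values in 46, 48, 75 and 77 were 307.6, 137.9, 337.8 and 402.2. The remaining markers of this list were not called, so no fall of myeloid markers as a group is read from the sum. Of 6 fibroblast markers Col1a1, Col1a2 and Col3a1 were called lower, with sums from 1171 to 1539 in Cre-positive and from 1228 to 1656 in Cre-negative libraries. Most of that sum is Dcn, which was not called. It ran the other way, from 989.3 to 1170.7 in Cre-positive and from 562.4 to 890.4 in Cre-negative libraries. The other 5, the collagens with Pdgfra and Pdgfrb, summed to 133.6 to 368.6 in Cre-positive and 436.9 to 770.3 in Cre-negative libraries. These sums did not overlap and were lower in Cre-positive libraries, like most called enzyme genes. Pdgfra and Pdgfrb were not called, and the sums with Dcn overlapped, so no fall of fibroblast markers as a group is read from the sum. Pax5 was called lower among 5 B cell markers (sums from 240.3 to 473.3 in Cre-positive and from 325.9 to 446.7 in Cre-negative libraries). None of 6 cortical epithelial, 8 thymocyte or 5 endothelial markers was called, and no marker was at 0 in all libraries. The part of any of these cells in the enzyme results was not tested.

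The authors' deposited table, whose log2 fold change runs Cre-negative over Cre-positive, holds an adjusted p for 47 of the 80 genes and has 23 under 0.05, of which 22 are lower and 1 is higher in Cre-positive libraries. It shares 19 of these with the 22 called here, 86.4% of the calls here and 82.6% of those in the authors' deposited table. Ces1a, Gstt1 and Sult1c1 are called here and have no adjusted p in the authors' deposited table. Gstt3, Sult3a1, Sult1d1 and Sult2a5 are under 0.05 in the authors' deposited table alone.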

How the data were processed

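The submitters' processing notes name STAR 2.7.9a, DESeq2 and build GRCm39. The sources used here give neither the counting tool nor its treatment of strand. The authors deposited 1 table of 55536 genes with normalized counts per library, a signal made by dividing counts by size factors and rounded to 1 decimal, and, per the file headers, a log2 fold change, its p-value and adjusted p-value. Gene positions equal those of GENCODE M21 (GRCm38) for 95.2% of 52403 genes in both and for 76 of the 80 enzyme genes, so positions are given on GRCm38. Symbols missing for 3047 IDs were taken from a table of gene names.

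Genes averaging 5 or more normalized counts were fitted with limma 3.58.1 (R 4.3.3, intensity trend) on log2(normalized count + 1), Cre-positive over Cre-negative, with Benjamini-Hochberg adjustment over all 22878. Fold changes are on that log2(value + 1) scale, which understates changes of low genes, and adjusted p values come from limma where no other tool is named. Whole read counts were rebuilt from the deposited values: in each library 100% of values were whole within 0.0501 normalized counts, and the rebuilt means equalled the deposited means for 100% of genes. Intervals on these reads cover counting error only. The alternatives were a pseudocount of 0.5, no filter, scaling to library totals, edgeR 4.0.16 and DESeq2 1.42.0 on recovered reads, terms for sample number range and Y-linked expression, and leaving out each library. The limma fit was tested on simulated data. Transcript stretches of 50 bases were compared over GENCODE M21, and promoter windows are from RefSeq. Values per library are given for called genes and for the 2 of highest mean in each family, and called genes of the pathway lists are named, except 1 result that is not reported here. The genes and lists were chosen with earlier results of these data known. Proteins were not used here. The sequencing depth of each library is given as recovered reads. Python 3.11.15, pandas 2.3.3, numpy 2.4.6, scipy 1.17.1 and matplotlib 3.10.9 were used.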

Additional observations from a re-analysis of the deposited data

Results flagged for a closer look

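In 6 of 62 groups of 4 Cre-negative values, the highest or lowest library stood far from the others by Dixon's criterion, which chance meets in about 5% of groups. Cre-negative 48 was the high library for Ces1a (164.5 normalized counts), Ces2g (725.9), Ugt2b34 (192.1) and Ugt2b35 (42.4), and it is also the library with Y-linked reads. Cre-negative 77 was high for Ces1e (93.0), and Cre-negative 46 was low for Ces1b (26.8). The part of the Y-linked difference in these values was not tested.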

How the results depend on the processing

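Of 392 values, those of 28 named genes under 14 alternatives, 343 kept their direction and side of the threshold, 40 lost the call, 4 gained it and 5 changed sign. All 5 are Gsta2, which was not called (-0.07; 0.13 with the Y-linked term, and -0.46 to 0.18 when 1 library was left out). Of the 22 called genes 13 kept their call in all 14 alternatives. The 13 include Ces1c, Ces1g, Gstm7, Sult1c1 and Ugt2b36, which passed the filter through the Cre-negative libraries alone. Nothing is read from the kept calls of those genes. The 21 lower calls were 15 to 21 when 1 library was left out, 17 with the Y-linked term, 19 with edgeR and 25 with DESeq2. The single higher call, Gstp3, became 0 with library total scaling and 0 with the Y-linked term, and ran from 0 to 2 when 1 library was left out. Scaling to library totals moved the median of all genes from -0.10 to -0.30. Calls over all genes ran from 1990 (without Cre-negative 46) to 2696 when 1 library was left out. The log2 ratio of the summed Gst counts was -0.21, and -0.42 with library total scaling and -0.44 without Cre-positive 80. Causes of these differences were not tested. No paired analysis was possible because the groups share no replicate numbers. The 22 genes with at most 35 reads over the 7 libraries were left out by the filter on low values.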
